A study of Mus musculus with 10 samples.

Results

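The cell cycle inhibitors and senescence regulators examined here were 10 genes, chosen by name as the 6 cyclin-dependent kinase inhibitors Cdkn1a, Cdkn1b, Cdkn1c, Cdkn2b, Cdkn2c and Cdkn2d, the tumor suppressor Trp53, its negative regulator Mdm2, the retinoblastoma gene Rb1 and the cyclin Ccnd1. They were matched to the deposited Ensembl gene identifiers through the GENCODE M21 symbols, and 10 of 10 were found among 14106 genes. RNA-seq was performed on freshly isolated brain endothelial cells (BECs), sorted from cortex as CD31+CD45- cells with microbeads, in 5 libraries from female APP/PS1 mice and 5 from age-matched female control mice, all 1 year old. APP/PS1 mice carry mutant transgenes for amyloid precursor protein (a mouse/human chimera with the Swedish mutation, Mo/HuAPP695swe) and for human presenilin 1 (PS1DE9), deposit amyloid-beta with age, and were described as expressing the transgenes ubiquitously, so that BECs and the tissue around them share the genotype. The controls were labelled WT and had the same C3H/BL6 background. Whether mice were pooled for a library is not given in the sources used here. Each SD and p-value below measures the spread between libraries, or between their pairs, after batch correction, and this spread may be technical.

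The 3 genes of the Cip/Kip family (Cdkn1a, Cdkn1b and Cdkn1c, encoding p21, p27 and p57) encode proteins that bind and inhibit a broad range of cyclin and cyclin-dependent kinase (CDK) complexes. The INK4 family (here Cdkn2b, Cdkn2c and Cdkn2d) encodes inhibitors that bind CDK4 and CDK6 only and so keep cyclin D from activating them. When these kinases are inactive, the retinoblastoma protein stays underphosphorylated, holds E2F factors and keeps a cell out of S phase. p53 induces Cdkn1a and also Mdm2, whose product in turn marks p53 for degradation. Endothelial cells of the adult brain are largely quiescent, and lasting expression of p21 and of some, not all, INK4 inhibitors is a usual mark of senescent cells.

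Values are log2 CPM, the log2 of counts scaled to the library size, after the batch correction of the authors, in which same-numbered control and APP/PS1 libraries form a pair. The adjusted counts behind them summed to between 22993426 and 126686149 per control library and to between 22371766 and 114525432 per APP/PS1 library, and replicate 1 had the smallest total in both groups. The lowest adjusted count of any of the 10 genes in any library was 88, for Cdkn2c. Since the correction made the pair means nearly equal, the 2 libraries of a pair lie on opposite sides of their common mean, and a gene with the same sign in all pairs almost always has groups that do not overlap. The SDs of the 2 groups of a gene are therefore similar and are not independent measures of spread.

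Both starts of Cdkn1a in the RefSeq table and the start of Cdkn1b are shown because Cdkn1a had the highest level per length and one of the widest spreads between pairs of the 10 genes, while Cdkn1b of the same family had one of the narrowest. The sequences are RefSeq promoters on GRCm38.p6, 250 bases before to 50 after the start, 5′ to 3′ on the plus strand, at chr17:29090729-29091028 (Cdkn1a upstream), chr17:29093519-29093818 (Cdkn1a internal) and chr6:134920151-134920450 (Cdkn1b). Capitals mark a match to the p53 response element in the first and GC boxes (GGGCGG, either strand) in the others.
Cdkn1a upstream: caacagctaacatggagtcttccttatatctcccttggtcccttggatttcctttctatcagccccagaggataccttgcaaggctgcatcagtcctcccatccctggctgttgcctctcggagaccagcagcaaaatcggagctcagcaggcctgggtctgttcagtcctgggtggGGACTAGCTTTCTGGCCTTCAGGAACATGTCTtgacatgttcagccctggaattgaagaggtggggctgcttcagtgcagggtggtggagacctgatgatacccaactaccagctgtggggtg
Cdkn1a internal: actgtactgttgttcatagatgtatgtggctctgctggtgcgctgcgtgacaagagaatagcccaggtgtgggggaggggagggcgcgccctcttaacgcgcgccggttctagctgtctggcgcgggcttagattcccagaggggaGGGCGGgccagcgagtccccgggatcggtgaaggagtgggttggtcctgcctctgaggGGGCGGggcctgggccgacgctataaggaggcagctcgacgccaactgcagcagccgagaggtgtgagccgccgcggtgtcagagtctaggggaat
Cdkn1b: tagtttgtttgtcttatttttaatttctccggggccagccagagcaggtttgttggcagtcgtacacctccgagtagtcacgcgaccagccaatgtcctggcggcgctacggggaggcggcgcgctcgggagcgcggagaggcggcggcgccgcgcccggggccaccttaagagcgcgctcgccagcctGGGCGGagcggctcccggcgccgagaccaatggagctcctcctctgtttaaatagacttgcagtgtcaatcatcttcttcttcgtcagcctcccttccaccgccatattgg

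The p53 response element of the upstream Cdkn1a window began 73 bases before the start and spanned 32 bases, with 12 bases between its decamers. The same motif was found in 0.0731% of 32851 promoters. The internal window held 2 GC boxes and the Cdkn1b window held 1, a motif found in 35.7% of promoters. Cdkn1b also held 3 copies of the CAAT box (CCAAT, either strand, found in 37.4% of promoters). Of the other members with a promoter in the table, Cdkn2d held 5 GC boxes, one of the Cdkn2c windows 4, Mdm2 2 and Cdkn2b 1, and the Trp53 window held none. The Trp53 window held an E box (CACGTG, in 7.15% of promoters), a CAAT box and a TATA box (TATAAA, either strand, in 13.6%). A match describes the letters of the window and says nothing of binding in these cells.

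Levels per length set the members apart by more than 6 log2 units, with Cdkn1a at the top and Cdkn2c at the bottom. As log2 CPM minus the log2 of the exonic length in kb, Cdkn1a had 7.50 ± 0.25 (SD over 10 libraries), above 98.9% of all genes. Cdkn1c at 5.06 ± 0.14 and Cdkn1b at 5.04 ± 0.04 followed, and their libraries overlapped. Rb1 had 4.51 ± 0.05. Ccnd1 at 4.17 ± 0.14, Cdkn2d at 4.11 ± 0.14, Mdm2 at 3.93 ± 0.04 and Cdkn2b at 3.73 ± 0.21 formed a group in which each neighbour overlapped the next in the per-length level. Trp53 at 3.11 ± 0.08 and Cdkn2c at 0.61 ± 0.15 lay apart below them, and Cdkn2c was above only 24.1% of all genes on this scale. Cdkn2a, the remaining INK4 gene and a usual senescence marker, was not among the 14106 genes with deposited values.

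**Figure D1:**
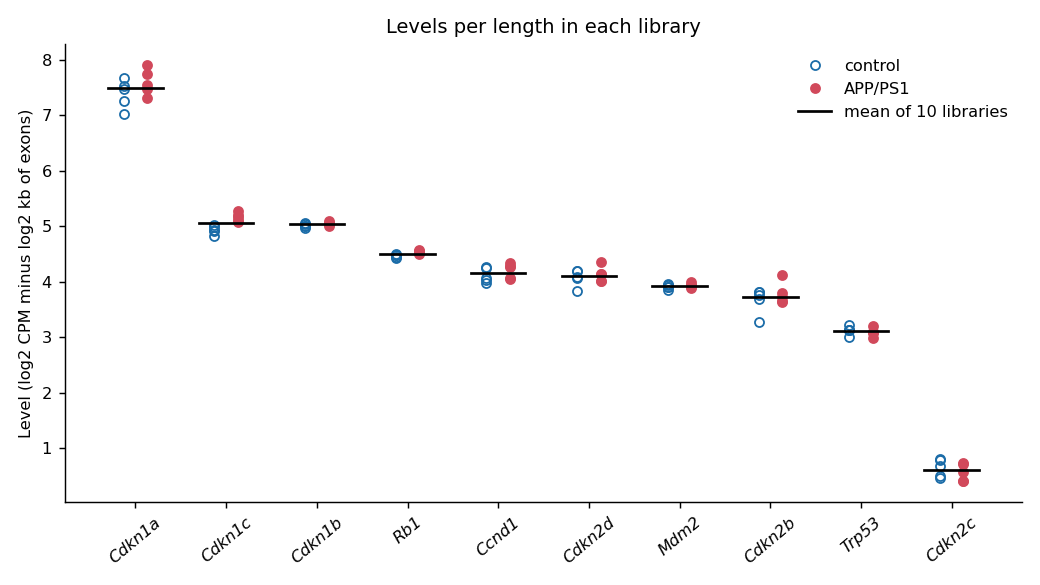
Level of each gene per length (y axis, log2 CPM minus log2 kb of exons) in 5 control (open) and 5 APP/PS1 (filled) libraries, with the mean of 10 libraries as a line. Cdkn1a stands 2.44 log2 units above the next gene and Cdkn2c 2.50 below Trp53, while the 2 groups overlap for all genes but Cdkn1c and Rb1.

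None of the 10 members passed the test between APP/PS1 and control BECs. In the linear model of limma with genotype and the replicate number as terms, 0 members and 0.0% of all genes were called at an adjusted p threshold of 0.05, and the lowest adjusted value of any gene was 0.195. At an unadjusted p under 0.05 the model gave 8.03% of all genes and 1 member, Cdkn1c. Voom weights on the adjusted counts gave 0 genes after adjustment, and 1025 genes and 1 member at an unadjusted p under 0.05. The mean was higher in APP/PS1 BECs for 8 members and lower for 2, and the median log2 difference of the members was 0.06, against −0.00 over all genes, of which 48.2% were higher. No member differed by 1 log2 unit or more, and for 8 of 10 the 95% interval of the difference lay within 0.5 log2 units of 0. In such bulk samples fewer cells of a type and less RNA per cell cannot be told apart.

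Only 2 members, Cdkn1c and Rb1, were higher in APP/PS1 BECs in all 5 pairs, a pattern met by 2.99% of all genes. No member was lower in all pairs, against 5.0% of genes. Over either direction 7.99% of genes kept 1 sign in all pairs, and 7.88% had groups that did not overlap. The number of members that were higher was 7 of 10 in the replicate 1 pair, 3 in the replicate 2 pair, 8 in the replicate 3 pair and 6 in each of the other pairs.

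**Figure D2:**
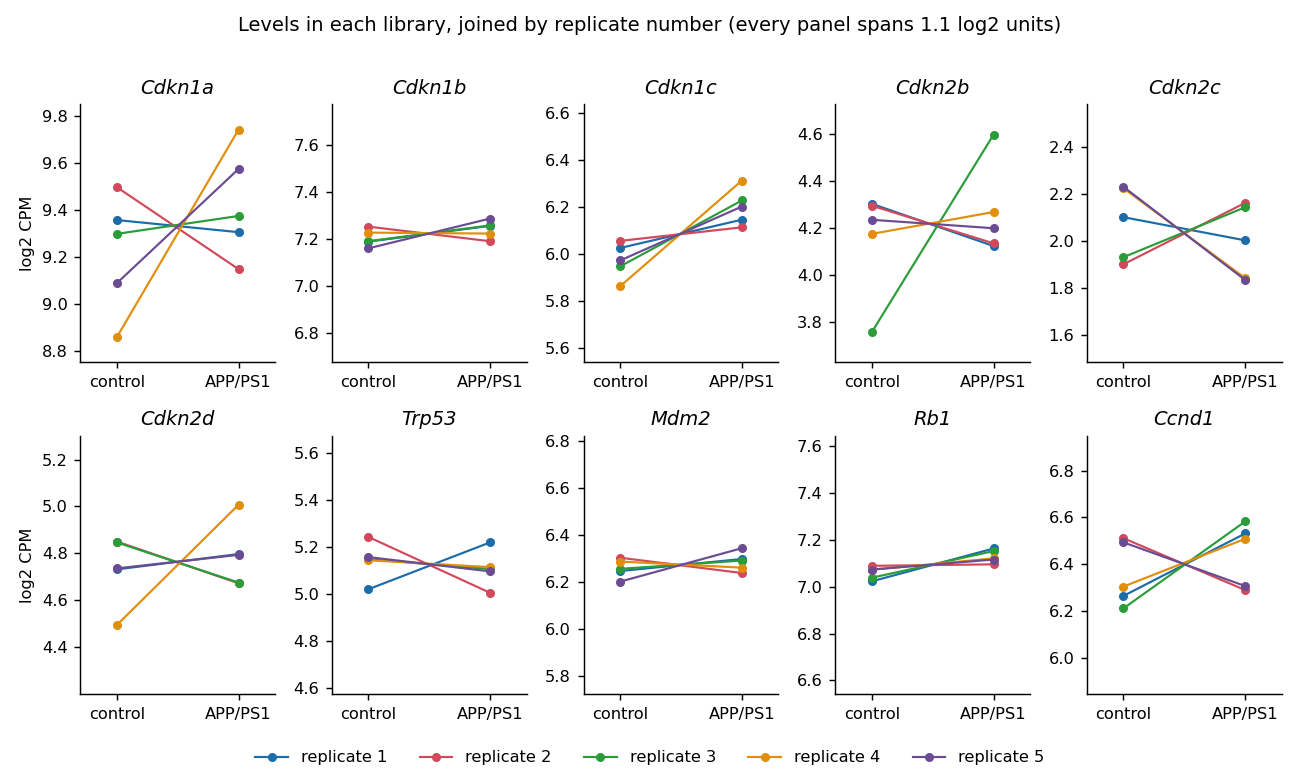
Level of each gene (y axis, log2 CPM, every panel spanning 1.1 log2 units) in control and APP/PS1 BECs, with a line joining the libraries of 1 replicate number. All lines point upwards for Cdkn1c and Rb1, and lines point both ways for the other genes. The steepest lines are those of Cdkn1a in replicate 4 and of Cdkn2b in replicate 3.

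Cdkn1c, on chromosome 7 at 143458339 to 143461050 on the minus strand, encodes p57, a Cip/Kip inhibitor that is imprinted and expressed from the maternal copy. Its levels in control replicates 1 to 5 were 6.03, 6.06, 5.95, 5.86 and 5.97 log2 CPM, and in the APP/PS1 replicates 6.15, 6.11, 6.23, 6.31 and 6.20 log2 CPM. The lowest APP/PS1 library, replicate 2, lay just above the highest control library, which had the same number. The mean was 5.97 ± 0.08 in controls and 6.20 ± 0.08 in APP/PS1 BECs (SD, n = 5), a log2 difference of 0.23 with a standard error of 0.0686 (1.17-fold). The limma adjusted p was 0.566 and the unadjusted p 0.0167, and the 2-sided exact sign-flip permutation test of the 5 differences gave p = 0.062, the smallest p that 5 pairs allow. The paired differences ran from 0.06 in replicate 2 to 0.45 in replicate 4, and with 1 replicate left out at a time the log2 difference stayed between 0.17 and 0.27. Without the replicate term the same difference had a limma adjusted p of 0.0315. That fit called 4.59% of all genes, and Cdkn1c was the 1 member among them. It counts the degrees of freedom that the batch correction had already used.

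Cdkn1c shares 625 exonic bases, 30.7% of its exonic length, with the antisense gene Gm44732. The sources used here do not state whether reads were counted by strand, so reads of the pair may not be told apart. Gm44732 had a mean of 2.49 log2 CPM and was also higher in 5 of 5 pairs, by 0.31 ± 0.0889 (SE) log2 units with a limma adjusted p of 0.554.

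Cdkn1a had the next largest mean difference of the members after Cdkn1c, with pairs that went in both directions. It lies on chromosome 17 at 29090976 to 29100727 on the plus strand, and encodes p21, the inhibitor through which p53 stops the cycle. The control libraries had 9.36, 9.50, 9.30, 8.86 and 9.09 log2 CPM for replicates 1 to 5, and the APP/PS1 libraries 9.31, 9.15, 9.37, 9.74 and 9.57 log2 CPM. The groups overlapped: the extreme values were those of replicate 4, lowest among controls and highest among APP/PS1 libraries, and replicate 2 went the other way. The log2 difference was 0.21 ± 0.183 (SE, 95% interval −0.24 to 0.66), the limma adjusted p was 0.845 and the exact sign-flip p was 0.375. Paired differences were −0.05, −0.35, 0.08, 0.89 and 0.49 for replicates 1 to 5. Their SD was wider than that of 95.1% of the 12190 genes with a mean of at least 1 log2 CPM. Leaving out replicate 4 brought the log2 difference to 0.04, and leaving out replicate 2 brought it to 0.35.

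Cdkn1b, encoding p27, a Cip/Kip inhibitor that holds quiescent cells out of the cycle, was among the most even of the members. It lies on chromosome 6 at 134920401 to 134925513 on the plus strand. Its control libraries had 7.19, 7.25, 7.19, 7.23 and 7.16 log2 CPM, and its APP/PS1 libraries had 7.26, 7.19, 7.26, 7.22 and 7.29 log2 CPM. The groups overlapped, and 3 of 5 pairs were higher. It differed by 0.04 ± 0.0473 log2 units (SE, 95% interval −0.08 to 0.16) with a limma adjusted p of 0.885, so a change of more than 0.16 log2 units lay outside the interval. The SD of its paired differences exceeded that of 10.8% of genes.

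**Figure D3:**
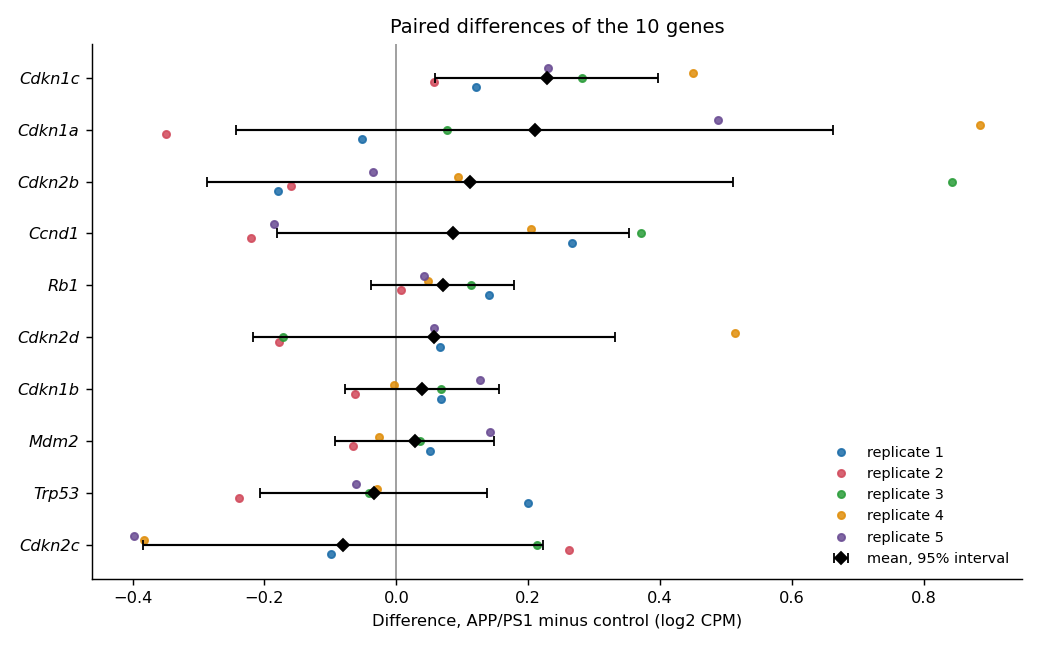
Difference between APP/PS1 and control libraries of the same replicate number (x axis, log2 CPM) for each gene, as 1 point per pair, with the mean and its 95% interval from limma as a diamond and a bar. The interval of Cdkn1c, 0.06 to 0.40, does not reach 0 before adjustment over all genes, and the points of Cdkn1a spread from −0.35 to 0.89.

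The INK4 inhibitors showed no shared direction, and the mean of each depended on 1 or 2 pairs. Cdkn2b, encoding p15, which TGF-beta signaling induces in many cell types, lies on chromosome 4 at 89306299 to 89311039 on the minus strand. It had 4.30, 4.29, 3.76, 4.17 and 4.23 log2 CPM in the control libraries and 4.12, 4.13, 4.60, 4.27 and 4.20 log2 CPM in the APP/PS1 libraries. Replicate 3 held both the lowest control and the highest APP/PS1 value, and the other libraries of the groups overlapped. The log2 difference was 0.11 ± 0.162 (SE) with a limma adjusted p of 0.902, and it turned to −0.07 without replicate 3.

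Cdkn2c, encoding p18, lies on the same chromosome at 109660876 to 109667189 on the minus strand. Its control libraries had 2.10, 1.90, 1.93, 2.23 and 2.23 log2 CPM and its APP/PS1 libraries 2.00, 2.16, 2.14, 1.84 and 1.83 log2 CPM. Replicates 4 and 5 were lower in APP/PS1 BECs by 0.38 and 0.40 log2 units, and replicates 2 and 3 were higher by 0.26 and 0.21. The mean log2 difference was −0.08 ± 0.123 (SE, limma adjusted p = 0.905).

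Cdkn2d, encoding p19, lies on chromosome 9 at 21288410 to 21291407 on the minus strand. It ranged from 4.49 to 4.85 log2 CPM in control libraries and from 4.67 to 5.01 log2 CPM in APP/PS1 libraries. Both the lowest control and the highest APP/PS1 value again came from replicate 4, whose paired difference was 0.51. Its log2 difference was 0.06 ± 0.111 (SE, limma adjusted p = 0.927), and without replicate 4 it was −0.06.

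Trp53, Mdm2, Rb1 and Ccnd1 had log2 differences of less than 0.1 in size. Trp53, the gene of the transcription factor p53, lies on chromosome 11 at 69580359 to 69591873 on the plus strand. It had 5.02, 5.24, 5.15, 5.14 and 5.16 log2 CPM in control libraries and 5.22, 5.01, 5.11, 5.11 and 5.10 log2 CPM in APP/PS1 libraries. Replicate 1 was higher in APP/PS1 BECs by 0.20 and the other 4 pairs were lower, by up to 0.24 in replicate 2. On average it differed by −0.03 ± 0.0697 log2 units (SE, 95% interval −0.21 to 0.14), with a limma adjusted p of 0.930.

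Mdm2, which encodes the ubiquitin ligase of p53 and is also its target, lies on chromosome 10 at 117688875 to 117710758 on the minus strand. Its control libraries lay between 6.20 and 6.30 log2 CPM and its APP/PS1 libraries between 6.24 and 6.34 log2 CPM, with overlap in all but the ends of these ranges. The log2 difference was 0.03 ± 0.0487 (SE, 95% interval −0.09 to 0.15, limma adjusted p = 0.920). With library totals alone as the scaling it was −0.01. That scaling moved the median of all genes from −0.00 to −0.04, so relative to all genes Mdm2 was placed alike under both.

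Rb1 encodes the retinoblastoma protein, the substrate of the cyclin D kinases that restrains E2F factors, and lies on chromosome 14 at 73183673 to 73325822 on the minus strand. Control replicates 1 to 5 had 7.02, 7.09, 7.04, 7.07 and 7.07 log2 CPM, and APP/PS1 replicates had 7.16, 7.09, 7.15, 7.12 and 7.12 log2 CPM. The groups did not overlap, but replicate 2 differed by only 0.01 log2 units. The log2 difference was 0.07 ± 0.0438 (SE, 1.05-fold), the limma adjusted p was 0.792 and the exact sign-flip permutation p was 0.062, again the smallest possible. The SD of its paired differences exceeded that of 4.48% of genes. With library totals alone, which lowered all genes alike, the difference was 0.03 and Cdkn1c was the only member with 1 sign in all pairs. Lpar6, a receptor gene that shares 408 exonic bases (6.78% of the Rb1 exons), was also higher in 5 of 5 pairs, by 0.09 ± 0.0445 (SE) log2 units with a limma adjusted p of 0.719. Rcbtb2, which shares 488 bases (8.11%), had a log2 difference of 0.00.

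Ccnd1 encodes cyclin D1, the partner of CDK4 and CDK6 that growth factors induce, and lies on chromosome 7 at 144929931 to 144939925 on the minus strand. Its control libraries had 6.27, 6.51, 6.21, 6.31 and 6.49 log2 CPM and its APP/PS1 libraries 6.53, 6.29, 6.58, 6.51 and 6.31 log2 CPM. Replicates 1, 3 and 4 were higher in APP/PS1 BECs and replicates 2 and 5 lower, each by 0.19 to 0.37 log2 units. The log2 difference was 0.09 ± 0.108 (SE, limma adjusted p = 0.888), and 0.02 without replicate 3. Ccnd1 shares 1100 exonic bases (23.4%) with LTO1, whose log2 difference was 0.02.

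In each pair the difference of Cdkn1a had the sign of the median difference of genes of the response to cell isolation, which enzymatic dissociation of tissue induces. Of 16 such genes listed, among them Fos, Jun, Egr1 and Atf3, 15 were analysed, and the number of them that was higher in APP/PS1 libraries was 5, 4, 9, 15 and 14 in the pairs of replicates 1 to 5. Their median paired differences were −0.06, −0.12, 0.04, 0.50 and 0.23 log2 units, beside −0.05, −0.35, 0.08, 0.89 and 0.49 for Cdkn1a. Over the fit 15 of 15 had a higher mean with a median log2 difference of 0.10, and 0 passed the limma test. With library totals alone 10 were higher and 5 lower, with a median of 0.06 against −0.04 over all genes. Junb, an AP-1 subunit, was higher in 5 of 5 pairs by 0.27 ± 0.0858 (SE, limma adjusted p = 0.569), and Fosb, another, had 0.32 ± 0.185 (SE, limma adjusted p = 0.772). Ier2, an immediate early gene, was higher in 5 of 5 pairs by 0.19 ± 0.0809 (SE), and the nuclear receptor gene Nr4a1 had 0.17 ± 0.0969 (SE). The same signs by pair were also found in the medians of the p53 target genes (−0.12, −0.05, 0.11, 0.05 and 0.05 for replicates 1 to 5) and of the upstream regulators of the inhibitors (−0.02, −0.07, 0.06, 0.05 and 0.08). The part of the isolation response in the Cdkn1a values was not tested.

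**Figure D4:**
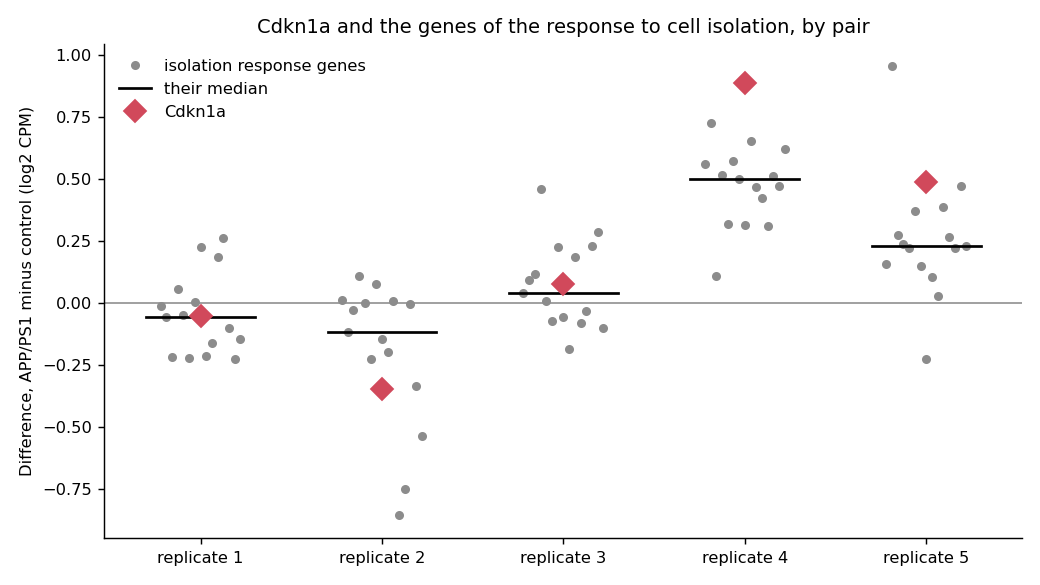
Paired difference between APP/PS1 and control libraries (y axis, log2 CPM) by replicate number, with Cdkn1a as a diamond, 15 isolation response genes as points and their median as a line. Cdkn1a and the median lie below 0 in replicates 1 and 2 and above it in replicates 3, 4 and 5.

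The 3 genes with paired differences most like those of Cdkn1a, by Euclidean distance over the 5 pairs among 1233 genes within 2 log2 units of its mean level, were Arid5a (0.230), Mafk (0.274) and Ifrd1 (0.283), against a median distance of 0.995. Each of them, like Cdkn1a, was highest in the replicate 4 pair and next in the replicate 5 pair, a likeness built in by choosing them on these same differences. For Trp53 the nearest of 7694 genes were Usp22 (0.0806), 6430548M08Rik (0.0884) and Cux1 (0.0886), with a median distance of 0.450. For Ccnd1 they were Abca5 (0.202), the growth factor gene Tgfb1 (0.206) and Pik3ip1 (0.217) of 6329, with a median distance of 0.624.

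Among the other genes of the pathways, counted over 7 lists with 117 genes analysed, 0 passed the limma test with the replicate term and 0 with voom weights. Of the G1 cyclins, CDKs, pocket proteins and E2F factors, 15 of 20 were analysed, 10 had a higher mean and 5 a lower one, and the median log2 difference was 0.01. With library totals alone 2 were higher and 13 lower, with a median of −0.02 against −0.04 over all genes. Ccnd2, another D-type cyclin, had a log2 difference of 0.19 ± 0.173 (SE), higher in 4 of 5 pairs, and Ccnd3 had 0.03. Tfdp2, a partner of E2F factors, had 0.05 ± 0.0484 (SE). The kinases that the INK4 proteins bind had −0.19 ± 0.106 (SE) for Cdk6, lower in 4 of 5 pairs, and −0.07 ± 0.0514 (SE) for Cdk4.

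The p53 regulators and DNA damage kinases had 8 genes higher and 5 lower of 13 analysed, with a median log2 difference of 0.04. Mdm4, which binds p53 and blocks its activity, had 0.08 ± 0.0604 (SE) and Sirt1, a deacetylase of p53, had 0.18 ± 0.0963 (SE), each higher in 4 of 5 pairs. Cop1, a ubiquitin ligase of p53, had 0.10 ± 0.0552 (SE), also higher in 4 of 5 pairs. Chek2, a DNA damage kinase, had −0.09 ± 0.127 (SE) and was lower in 4 of 5 pairs. Of the p53 target genes other than Cdkn1a and Mdm2, 12 had a higher mean and 13 a lower one of 25, with a median of −0.00. By pair they were less even, with 5, 9, 17, 16 and 18 of 25 higher in replicates 1 to 5. Pmaip1, which encodes the proapoptotic protein NOXA, had the largest log2 difference of the list at 0.47 ± 0.297 (SE, limma adjusted p = 0.792), with pairs from −0.53 to 1.29. Gadd45a, a growth arrest gene, had 0.21 ± 0.146 (SE), and Ccng1, a cyclin that p53 induces, had −0.13 ± 0.0882 (SE). The antiproliferative gene Tob1 had 0.25 ± 0.126 (SE) and Perp, an apoptosis effector, −0.33 ± 0.187 (SE). The DNA repair gene Xpc was the 1 target with the same sign in all pairs, lower in each, and is named only to complete that count.

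The upstream regulators of the inhibitors had 10 genes higher and 5 lower of 15 analysed, with a median log2 difference of 0.02. With library totals alone 7 were higher and 8 lower, with a median of −0.02 against −0.04 over all genes. Klf4, a transcription factor that activates Cdkn1a in many cells, was at 10.49 ± 0.08 log2 CPM in controls and 10.73 ± 0.09 in APP/PS1 BECs (SD, n = 5). It was higher in 5 of 5 pairs by 0.25 ± 0.0746 (SE), with a limma adjusted p of 0.566 with and 0.0338 without the replicate term. Without that term 4.59% of all genes were called. Tgfbr1, named only to complete the count, was the other gene of this list that was higher in all pairs. Foxo3, which can activate Cdkn1b, had 0.18 ± 0.107 (SE) and Klf2, a flow-responsive factor, 0.16. Myc, which represses Cdkn1a and Cdkn2b, had −0.31 ± 0.166 (SE), with 2 of 5 pairs higher.

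Of 25 S, G2 and M phase genes 13 were analysed. They had a median level of 2.92 log2 CPM, which covers only genes kept after the authors left out low genes. Mki67, the usual proliferation marker, was not among the 14106 genes with deposited values. The mean was higher for 3 of them and lower for 10, and the median log2 difference was −0.02. Rrm2, a subunit of ribonucleotide reductase, was at 1.51 ± 0.13 log2 CPM in controls and 1.87 ± 0.12 in APP/PS1 BECs (SD, n = 5). It was higher in 5 of 5 pairs by 0.36 ± 0.103 (SE), with a limma adjusted p of 0.554 with and 0.0351 without the replicate term. Here too the fit without that term called 4.59% of all genes. Mcm7, a helicase subunit, had −0.19 ± 0.0691 (SE, limma adjusted p = 0.581) and was lower in 4 of 5 pairs. Ccna2, the cyclin of S and G2 phase, had −0.20 ± 0.120 (SE). Pcna, the sliding clamp of DNA replication, had 0.09 ± 0.0770 (SE).

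The secretory and marker genes of senescence were not shifted in 1 direction, with 10 higher and 12 lower of 22 analysed and a median log2 difference of −0.03. Their medians by pair were 0.15, −0.41, −0.10, 0.57 and −0.09 for replicates 1 to 5, a wider spread than their median over the fit. Igfbp5, an IGF-binding protein, had −0.72 ± 0.364 (SE, limma adjusted p = 0.729) with pairs from −1.54 to 0.77, and the chemokine gene Cxcl10 had 0.25 ± 0.286 (SE). Cxcl1, another chemokine gene, had −0.20 ± 0.262 (SE), and Igfbp3 had 0.20 ± 0.139 (SE). Lmnb1, the lamin gene that is lost in senescent cells, had −0.09 ± 0.0793 (SE) with 3 of 5 pairs lower. Mmp14, a matrix protease, and Glb1, the gene of lysosomal beta-galactosidase, were lower in all pairs, and both are named only to complete that count.

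**Figure D5:**
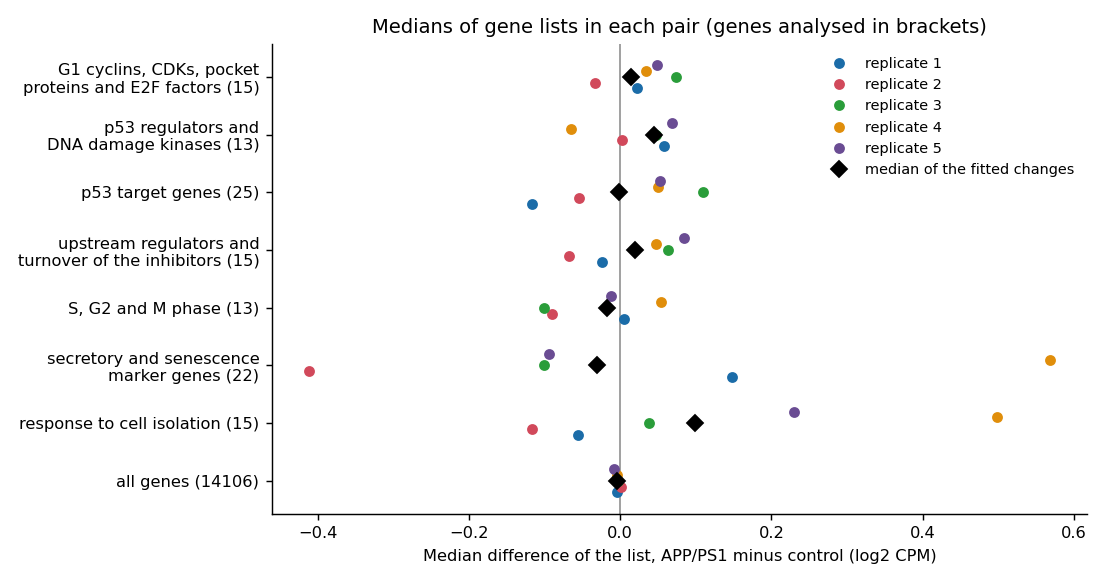
Median difference between APP/PS1 and control libraries (x axis, log2 CPM) of each pathway list and of all genes, as 1 point per replicate number and with the median of the fitted differences as a diamond. The senescence list spans −0.41 to 0.57 and the isolation list −0.12 to 0.50, both with replicate 2 lowest and replicate 4 highest, while all genes stay within 0.01 of 0.

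The labelled cell type was present in each library. The summed level of 10 endothelial markers, among them Pecam1, Cdh5 and Cldn5, was 18930 to 19756 CPM in controls and 19686 to 20629 CPM in APP/PS1 BECs. Of these markers 8 had a higher mean and 2 a lower one, with a median log2 difference of 0.08, and 0 passed the limma test. With library totals alone 6 were higher and 4 lower, with a median of 0.04. Mural cell markers summed to 606 to 1020 CPM in controls and 315 to 609 CPM in APP/PS1 BECs. All 9 of them had a lower mean, with a median log2 difference of −0.76, and 0 passed the limma test. At an unadjusted limma p under 0.05, 8 of these 9 were lower, where the model gave 8.03% of all genes in either direction. Without the replicate term 3 of them were called, against 4.59% of all genes. The 9 oligodendrocyte markers analysed were also all lower, at 63.4 to 307 CPM against 44.7 to 158 CPM, with a median log2 difference of −1.12, and 1 of their values stood at 0 adjusted counts. Of these, 0 passed the limma test, 5 were lower at an unadjusted p under 0.05, and 3 were called without the replicate term. Astrocyte markers summed to 169 to 207 CPM and 171 to 212 CPM, with 6 of 7 lower and a median log2 difference of −0.86. These sums rest mostly on 1 gene, since the highest level in the list was 7.22 log2 CPM and the median level 1.56 log2 CPM. The 4 neuronal markers analysed summed to 93.8 to 118 CPM and 97.9 to 122 CPM, with 3 lower and a median of −0.61. Their sums also rest mostly on 1 gene, with a highest level of 6.66 log2 CPM and a median level of 0.86 log2 CPM. With genes of at least 1 log2 CPM the median difference was −0.08. Microglia and leukocyte markers summed to 10.4 to 16.9 CPM in controls and 8.81 to 15.0 CPM in APP/PS1 BECs, with 4 of 6 lower and a median of −0.24. Fibroblast markers summed to 11.8 to 18.3 CPM and 7.10 to 12.3 CPM, with 3 of 3 lower and a median of −0.66. Pdgfra, 1 of these 3, is also counted among the oligodendrocyte markers above, whose list includes precursors, so the 2 lists are not independent. The 4 erythroid markers were all lower in the mean, with a median of −1.16, and summed to 29.4 to 241 CPM in controls and 14.3 to 153 CPM in APP/PS1 BECs. Their medians by pair were −1.58, −3.33, −3.98, 0.83 and 2.35 for replicates 1 to 5. Other medians also turned above 0 in some pairs, to 0.66 for astrocyte markers in replicate 2. In replicate 5 mural markers had 0.12 and fibroblast markers 0.11. Microglia and leukocyte markers had 0.72, 0.35 and 0.02 in replicates 1, 2 and 4. Oligodendrocyte and neuronal medians were below 0 in every pair. The part of these other cell types in the values of the 10 genes was not tested.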

How the data were processed

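RNA-seq libraries of BECs (5 control, 5 APP/PS1, in 5 pairs by replicate number) were analysed. The authors aligned reads to mm10 with STAR, counted them with HTSeq-count, left out low genes and took log CPM with edgeR and corrected for batch with ComBat, and deposited log2 CPM values of 14106 genes. Tool versions are not given in the sources used here. All of them (100%) gave whole adjusted counts when converted back (tolerance 0.001, mean prior count 3), which are not reads. No counting error was therefore computed. The methods' order of steps, with ComBat after log CPM, would not in general leave whole numbers, so the correction itself is uncertain.

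The main fit was limma 3.58.1 (lmFit and eBayes) in R 4.3.3 on the deposited log2 values with genotype and replicate number as terms, which left 4 residual degrees of freedom. Benjamini-Hochberg adjustment ran over 14106 genes with a threshold of 0.05. The fit was tested on simulated data. Pairing was taken from the study's supplementary material, which shows 5 batches of 1 control and 1 APP/PS1 library. The labels give 4, tried as an alternative. Across 10873 genes above 2 log2 CPM, deviations of paired libraries had correlations of −0.94 to −0.97, since the correction equalized pair means: their median SD was 0.00354, against 0.0863 for the differences divided by 2.

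The members and lists were chosen with earlier results of these data known. Besides the 10 members, the text names from each pathway list up to 4 genes with the largest log2 difference and a mean level of 1 log2 CPM or more, and further genes chosen by name, of which 1 is not reported here. Lists are given as counts and medians, with no test. Other alternatives were no replicate term, voom weights, a variance trend, a prior count of 0.5, other library scalings, a filter at 1 log2 CPM, a threshold of 0.10 and each replicate left out. Positions are from GENCODE M21, in which 14106 of 14106 genes were found, and promoters (7 of 10 members) from RefSeq on GRCm38.p6. The p53 response element was searched as a pair of decamers. Python 3.11.15 and SciPy 1.17.1 were used.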

Additional observations from a re-analysis of the deposited data

Results flagged for a closer look

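Cdkn2b stood out in control replicate 3, with 3.76 log2 CPM against 4.17 to 4.30 log2 CPM in the other 4 control libraries. The gap to the nearest of them was 0.766 of the range of the group, above the critical value of 0.71 for 5 samples (Dixon). It was the only library so marked in 20 groups examined (10 genes in each genotype), where chance marks 1 in 20. The paired APP/PS1 library had the highest Cdkn2b value of its group, and the 2 values mirror each other about a pair mean that the batch correction made equal to the others.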

How the results depend on the processing

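The count of genes passing an adjusted p of 0.05 was 0 with the replicate block, 648 without the replicate block and 1 with the 4 batches of the labels, and 0 to 5 with a replicate left out (5 without replicate 2, 1 without replicate 5). For the 10 members the count was 0 with the block and 1 without it, where Cdkn1c had a log2 difference of 0.23 (adjusted p = 0.0315). For the 117 genes of the pathway lists it was 0 with the block and 4 without it (Klf4, Tgfbr1, Rrm2 and Junb). The fit without the block called 4.59% of all genes. The block changed no other call among the members. With library totals alone 1 member, in place of 2, kept its sign in all pairs, and Mdm2 turned to −0.0097, while the median of all genes moved from −0.0038 to −0.041. With a replicate left out, log2 differences ranged from −0.093 to 0.017 for Trp53, −0.071 to 0.18 for Cdkn2b, −0.057 to 0.12 for Cdkn2d and −0.0011 to 0.051 for Mdm2, each range crossing 0, and from 0.04 to 0.35 for Cdkn1a, 0.02 to 0.06 for Cdkn1b, 0.17 to 0.27 for Cdkn1c, −0.17 to −0.0020 for Cdkn2c, 0.05 to 0.09 for Rb1 and 0.02 to 0.16 for Ccnd1. Of 195 list medians recomputed, 1 moved by more than its spread over pairs (neuronal markers, −0.08 with genes of at least 1 log2 CPM) and 10 had another sign. The cause of these shifts was not tested. With 5 pairs and 4 residual degrees of freedom, the 95% intervals differ widely between members, from −0.24 to 0.66 for Cdkn1a to −0.04 to 0.18 for Rb1.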
